A study of Rattus norvegicus with 12 samples.

Results

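A set of 10 genes of renal water and sodium transport was followed across lean, obese and treated rats. They encode the water channels Aqp1, Aqp2, Aqp3 and Aqp4, the vasopressin receptor Avpr2, the epithelial sodium channel (ENaC) subunits Scnn1a, Scnn1b and Scnn1g, the pump modulator Fxyd4 and the steroid enzyme Hsd11b2. They were chosen by name, are 10 of 13151 genes in the deposited table, and all 10 passed the filter on low values that 11633 genes passed. The tissue sequenced was renal cortex from male rats at 32 weeks of age, with 4 rats in each of 3 groups. ZL rats were Zucker lean controls. ZF rats were Zucker fatty rats, an obese model that lacks a functional leptin receptor by the study's methods (the series text names leptin itself). ZF-SGLT2i rats were Zucker fatty rats that received canagliflozin, an inhibitor of the glucose transporter SGLT2, at 10 mg/kg/day in the food, from an age of 24 weeks and for a course of 8 weeks. No lean rats received the drug. The only ZL rats in the methods had wedge biopsies of the kidney before they reached 32 weeks, as did the ZF rats of that time course, while treated rats came from a separate purchase of ZF rats for which no biopsy is described. In ZF-SGLT2i against ZL, biopsy and cohort therefore cannot be told apart from the group. The paper's text calls the sequenced untreated rats ZF, and a figure caption also calls them ZF-NT, the untreated arm of the separate purchase. If they were ZF-NT rats, biopsy and cohort cannot be told apart from the group in ZF against ZL either. If they came from the time course, that holds for ZF-SGLT2i against ZF instead. The rats carry the numbers 1 to 4 in ZL, 2 to 5 in ZF, and 2, 3, 4 and 6 in ZF-SGLT2i.

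Principal cells line the connecting tubule and collecting duct, where the final volume and sodium content of urine are set. Vasopressin binds the V2 receptor on their basolateral side, cAMP rises, and vesicles that hold Aqp2 are inserted into the apical membrane; water leaves the cell through Aqp3 and Aqp4. Sodium enters through ENaC, a channel of alpha, beta and gamma subunits under the control of aldosterone, and leaves by the sodium pump. Hsd11b2 inactivates glucocorticoids and thereby keeps the mineralocorticoid receptor for aldosterone. Aqp1 differs from the rest, since it is the water channel of the proximal tubule and descending thin limb and is not a principal cell gene.

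Each value is a read count scaled for its library and is close to CPM, the reads per 1e+06 reads of the library. Between 8824980 and 12210257 reads per rat lay on genes. The 10 genes were covered by 126 to 20462 reads per rat, with Avpr2 (126 to 258 reads) and Fxyd4 (162 to 232 reads) the most thinly covered. Values are not corrected for transcript length, so they are compared between rats and not between genes. The 3 groups were compared by limma on log2(value + 1) across all 11633 genes, and a gene was called when its Benjamini-Hochberg adjusted p was under 0.05. Single genes were also compared by a two-sided exact permutation test, whose smallest p with 4 rats against 4 is 0.0286. Comparisons that share a group are not independent of each other.

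In ZF rats compared with ZL rats, Scnn1g was called higher and Aqp1 lower, and the other 8 genes were not called. In ZF-SGLT2i rats compared with ZF rats, all 10 genes had a higher fitted value, but only Aqp2 was called. In ZF-SGLT2i rats compared with ZL rats, 8 of the 10 genes rose (Aqp2, Aqp3, Aqp4, Avpr2, Scnn1a, Scnn1b, Scnn1g and Hsd11b2), none was called lower, and Aqp1 and Fxyd4 were not called. Of all genes tested, 8.19% were called higher and 10.6% lower in ZF than in ZL, 1.39% higher and 1.75% lower in ZF-SGLT2i against ZF, and 12.4% higher and 15.0% lower in ZF-SGLT2i than in ZL. The median log2 fold change of the 10 genes was 0.24, 0.30 and 0.65 in these comparisons in turn, against -0.0077, 0.0064 and -7.0e-05 over all genes tested.

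**Figure D1:**
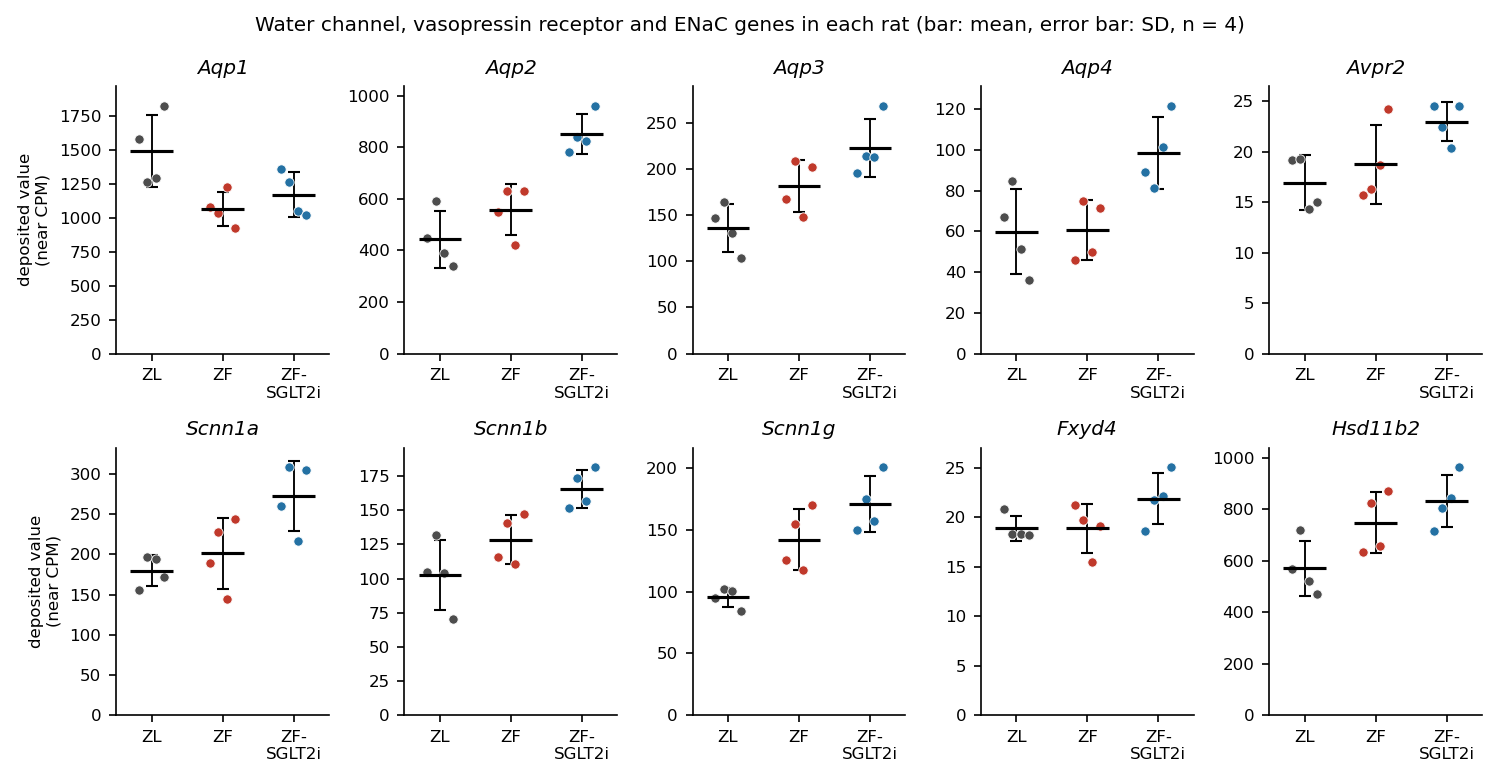
Deposited value (near CPM, vertical axis from 0) of each gene in each rat; points are rats in order of their number, the bar is the mean and the error bar the SD (n = 4). Aqp2 lay between 781 and 962 in the ZF-SGLT2i rats, above all ZL and ZF rats, whereas the mean of Aqp1 was highest in ZL.

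Aqp2 is the vasopressin-regulated water channel of the apical membrane. Its values were 447, 594, 391 and 340 in the ZL rats, 549, 630, 422 and 632 in the ZF rats, and 781, 842, 823 and 962 in the ZF-SGLT2i rats. ZL and ZF rats overlapped, and every ZF-SGLT2i rat lay above every rat of both other groups. The group means were 443 ± 110 in ZL, 558 ± 98.8 in ZF and 852 ± 77.2 in treated rats (SD, n = 4). Treated rats exceeded untreated ZF rats by a log2 fold change of 0.62 (SE 0.16, adjusted p = 0.0495), or 1.54-fold with a 95% interval of 1.22 to 1.95. This call sits at the threshold: it held in 3 of 12 fits that left out 1 rat and was lost in the other 9, with adjusted p from 0.0208 to 0.139. The rats whose removal ended it were ZL rats 1 and 3, ZF rats 2, 3 and 4, and all 4 ZF-SGLT2i rats, while the log2 fold change stayed between 0.50 and 0.69. Against ZL, treated rats were 1.96-fold higher (95% interval 1.55 to 2.48; log2 fold change 0.97, SE 0.16, adjusted p = 0.00074), and this call held without any of the 12 rats. ZF and ZL rats differed by a log2 fold change of 0.35 that was not called (adjusted p = 0.15), and its 95% interval ran from 0.0051 to 0.69.

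The RefSeq promoter table of the GRCr8 assembly held 9 windows for 8 of the 10 genes; Scnn1a and Hsd11b2 had no entry. The 250 bases before the start of Aqp2 and of Scnn1b are shown because they were the members' windows with TGACG, the core of the cAMP response element, and vasopressin acts through cAMP. Capitals mark the letters of 3 motifs, searched on both strands from 250 bases before to 50 bases after the start. TGACG is the motif just named. The letters AGAACA form the core of steroid receptor elements. The letters AGATAA are those that Gata factors bind.

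Aqp2 (chr7:132590036-132590285, GRCr8, plus strand): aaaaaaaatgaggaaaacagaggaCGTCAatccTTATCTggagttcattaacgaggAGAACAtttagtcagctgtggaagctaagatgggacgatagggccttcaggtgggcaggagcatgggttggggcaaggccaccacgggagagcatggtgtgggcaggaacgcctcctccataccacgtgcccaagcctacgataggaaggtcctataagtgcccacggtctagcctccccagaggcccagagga

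Scnn1b (chr1:185861126-185861375, GRCr8, plus strand): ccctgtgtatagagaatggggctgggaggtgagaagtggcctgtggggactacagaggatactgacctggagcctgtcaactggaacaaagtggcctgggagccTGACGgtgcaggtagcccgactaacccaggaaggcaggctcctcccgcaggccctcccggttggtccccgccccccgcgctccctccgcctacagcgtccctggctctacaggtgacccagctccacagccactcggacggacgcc

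In Aqp2, TGACG was found on the minus strand with its lowest base at -226 from the start, AGATAA on the minus strand at -217, and AGAACA on the plus strand at -194. In Scnn1b, TGACG lay on the plus strand at -146. AGAACA was also found in Avpr2, on the minus strand at -59. Of 33469 promoter windows in the table, 21.2% held TGACG, 20.7% AGAACA and 11.6% AGATAA, so these short matches are common and describe only these windows. TGACG was in 2 of the 9 member windows, AGAACA in 2 and AGATAA in 1.

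Aqp3 carries water across the basolateral membrane of the same cells. Its values were 147, 165, 131 and 103 in ZL rats, 167, 209, 148 and 202 in ZF rats and 195, 213, 213 and 268 in treated rats. The treated rats lay above all ZL rats and overlapped the ZF rats. Aqp3 rose 1.64-fold in ZF-SGLT2i against ZL (95% interval 1.32 to 2.03, adjusted p = 0.0028). The step from ZL to ZF (log2 fold change 0.42, adjusted p = 0.058) and the step from ZF to ZF-SGLT2i (0.30, adjusted p = 0.31) were each not called.

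Aqp4, the other basolateral water channel, was read at 67.2, 84.7, 51.3 and 36.1 in ZL rats, 45.8, 75.1, 49.9 and 71.3 in ZF rats and 88.9, 81.3, 101 and 122 in treated rats. The ZF rats lay within the wider range of the ZL rats, with means of 60.5 ± 14.8 in ZF and 59.8 ± 20.9 in ZL (SD, n = 4), and the treated mean was 98.3 ± 17.6. All treated rats exceeded all ZF rats (exact permutation test, p = 0.0286), but limma did not call this difference (log2 fold change 0.71, SE 0.23, adjusted p = 0.12). Against ZL the rise was called at 1.69-fold (95% interval 1.20 to 2.37, adjusted p = 0.025), although the treated rat with 81.3 lay below the ZL rat with 84.7. Leaving out ZL rat 3 or 4 or ZF-SGLT2i rat 4 or 6 ended that call, with adjusted p up to 0.0798.

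Aqp1 went the other way. It was measured at 1583, 1267, 1292 and 1828 in ZL rats, 1083, 1034, 1231 and 928 in ZF rats and 1359, 1263, 1051 and 1019 in treated rats. Every ZF rat was below every ZL rat, and the treated rats overlapped both groups. The fall in ZF against ZL was 0.72-fold (95% interval 0.59 to 0.88; log2 fold change -0.47, SE 0.13, adjusted p = 0.027). It was lost in 5 of the 12 fits that left out 1 rat (ZL rats 1 and 4, ZF rats 2, 3 and 5; adjusted p up to 0.075), and under quantile normalization it shrank to a log2 fold change of -0.22 (adjusted p = 0.23). Treated rats differed from ZF by a log2 fold change of 0.13 (95% interval -0.16 to 0.42) and from ZL by -0.34 (adjusted p = 0.075), and neither difference was called. The difference from ZL was called with array quality weights (-0.32, adjusted p = 0.047) and without ZL rat 2 (-0.41, adjusted p = 0.043). Across the 20 alternatives it ran from -0.415 to -0.070.

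Avpr2 encodes the V2 vasopressin receptor. Its values were 19.2, 19.3, 14.3 and 15.0 in ZL rats, 15.7, 16.3, 18.7 and 24.3 in ZF rats and 24.6, 22.5, 20.4 and 24.5 in treated rats. The treated rats lay above all ZL rats, and ZF rats spread over both other groups. The rise in ZF-SGLT2i against ZL was 1.34-fold (95% interval 1.10 to 1.64, adjusted p = 0.030). It was not called without ZL rat 3 or 4 or ZF-SGLT2i rat 2, 3 or 6, where adjusted p reached 0.082. ZF differed from ZL by a log2 fold change of 0.13 (adjusted p = 0.54) and treated rats from ZF by 0.30 (adjusted p = 0.27), and neither was called.

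The 3 ENaC subunits each rose in ZF-SGLT2i against ZL, without overlap between the groups, and these calls held whichever of the 12 rats was left out. Scnn1g, the gamma subunit, had the largest change of the 3 and was also called in untreated ZF rats. Its values were 94.6, 102, 100 and 84.3 in ZL rats, 126, 155, 117 and 171 in ZF rats and 150, 175, 158 and 201 in treated rats. All ZF rats lay above all ZL rats, a 1.47-fold rise (95% interval 1.23 to 1.76; log2 fold change 0.56, SE 0.12, adjusted p = 0.0065) that was called in each of the 20 alternative analyses. In ZF-SGLT2i against ZL the rise was 1.78-fold (95% interval 1.49 to 2.12, adjusted p = 0.00031). The step from ZF to ZF-SGLT2i was 0.27 on the log2 scale and was not called (adjusted p = 0.25).

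Scnn1b, the beta subunit, was read at 105, 132, 104 and 70.04 in ZL rats, 116, 140, 110 and 147 in ZF rats and 151, 173, 156 and 181 in treated rats. The treated rats stood above all rats of both other groups, and ZL and ZF overlapped. Scnn1b was 1.64-fold higher in ZF-SGLT2i than in ZL (95% interval 1.31 to 2.06, adjusted p = 0.0039). Against ZF it differed by a log2 fold change of 0.37 (SE 0.15; exact permutation test, p = 0.0286) that did not pass the adjusted threshold (adjusted p = 0.22).

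Scnn1a, the alpha subunit, was measured at 156, 197, 194 and 172 in ZL rats, 189, 228, 144 and 244 in ZF rats and 261, 308, 217 and 305 in treated rats. ZF rats spread on both sides of the ZL range, and the treated rats lay above the ZL rats. The rise in ZF-SGLT2i against ZL was 1.51-fold (95% interval 1.20 to 1.89, adjusted p = 0.011). Neither ZF against ZL (log2 fold change 0.14, adjusted p = 0.57) nor ZF-SGLT2i against ZF (0.45, adjusted p = 0.14) was called.

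Hsd11b2 had values of 570, 720, 522 and 472 in ZL rats, 635, 825, 657 and 873 in ZF rats and 717, 806, 846 and 964 in treated rats. The lowest treated rat lay just below the highest ZL rat, so these groups overlapped. The rise in ZF-SGLT2i against ZL was 1.47-fold (95% interval 1.20 to 1.80, adjusted p = 0.0096) and held without any of the 12 rats. ZF differed from ZL by a log2 fold change of 0.39 (adjusted p = 0.063) and from ZF-SGLT2i by 0.16 (treated minus untreated, adjusted p = 0.60), and neither was called.

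Fxyd4, a small protein that modulates the sodium pump of the collecting duct, was not called in any comparison. Its values were 20.8, 18.3, 18.4 and 18.2 in ZL rats, 21.3, 19.7, 15.5 and 19.1 in ZF rats and 18.7, 21.8, 22.1 and 25.1 in treated rats. The 3 groups overlapped. Its log2 fold change was -0.0081 in ZF against ZL (95% interval -0.23 to 0.22) and 0.20 in ZF-SGLT2i against ZL (95% interval -0.028 to 0.42, adjusted p = 0.18).

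**Figure D2:**
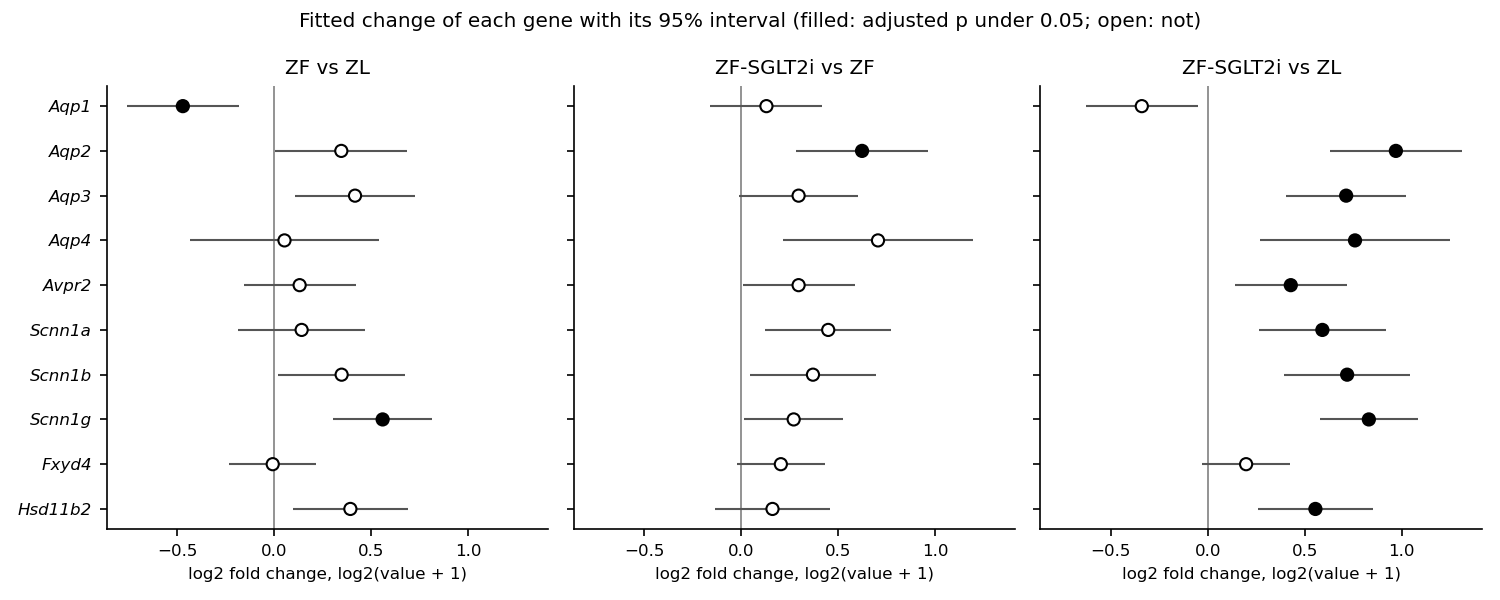
Fitted log2 fold change of each gene on log2(value + 1) in the 3 comparisons, with its 95% interval; filled points have a limma adjusted p under 0.05. In ZF-SGLT2i against ZL 8 of 10 points are filled and lie right of 0, and in ZF-SGLT2i against ZF only Aqp2 is filled.

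Groups were also compared by whether their rats overlapped. In ZF against ZL, 1 gene lay wholly higher (Scnn1g; 8.67% of all genes did) and 1 wholly lower (Aqp1; 10.3% of all genes). In ZF-SGLT2i against ZF, 3 genes lay wholly higher (Aqp2, Aqp4 and Scnn1b; 5.54% of all genes). In ZF-SGLT2i against ZL, 6 genes lay wholly higher (Aqp2, Aqp3, Avpr2, Scnn1a, Scnn1b and Scnn1g; 12.9% of all genes). At an unadjusted p under 0.05, 6, 6 and 9 of the 10 genes differed in these comparisons in turn, as did 33.1%, 17.2% and 39.3% of all genes tested.

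Ratios between genes within a rat do not depend on how the libraries were scaled, and 6 ratios were compared in 18 tests. The ratio of Scnn1g to Scnn1a was 0.533 ± 0.0508 in ZL, 0.714 ± 0.0671 in ZF and 0.632 ± 0.0760 in treated rats (SD, n = 4; ratios of values uncorrected for length). All ZF rats had a higher ratio than all ZL rats, and the treated rats overlapped both. The log2 difference between ZF and ZL was 0.42 (exact permutation test, p = 0.0286; Benjamini-Hochberg adjusted p = 0.129 over the 18 tests). The ratio of Aqp3 to Aqp2 was 0.327 ± 0.0196 in ZF and 0.260 ± 0.0130 in ZF-SGLT2i, without overlap (log2 difference -0.33; exact permutation p = 0.0286, adjusted p = 0.129). The ratio of Fxyd4 to Aqp2 was lower in all treated rats than in any ZF or ZL rat, with log2 differences of -0.42 and -0.77 and the same p and adjusted p. The ratios of Scnn1b to Scnn1a, Scnn1g to Scnn1b and Aqp4 to Aqp2 overlapped between the groups in each comparison. None of the 18 tests passed an adjusted p under 0.05, which 4 rats against 4 could not reach unless many of the tests had the smallest p.

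**Figure D3:**
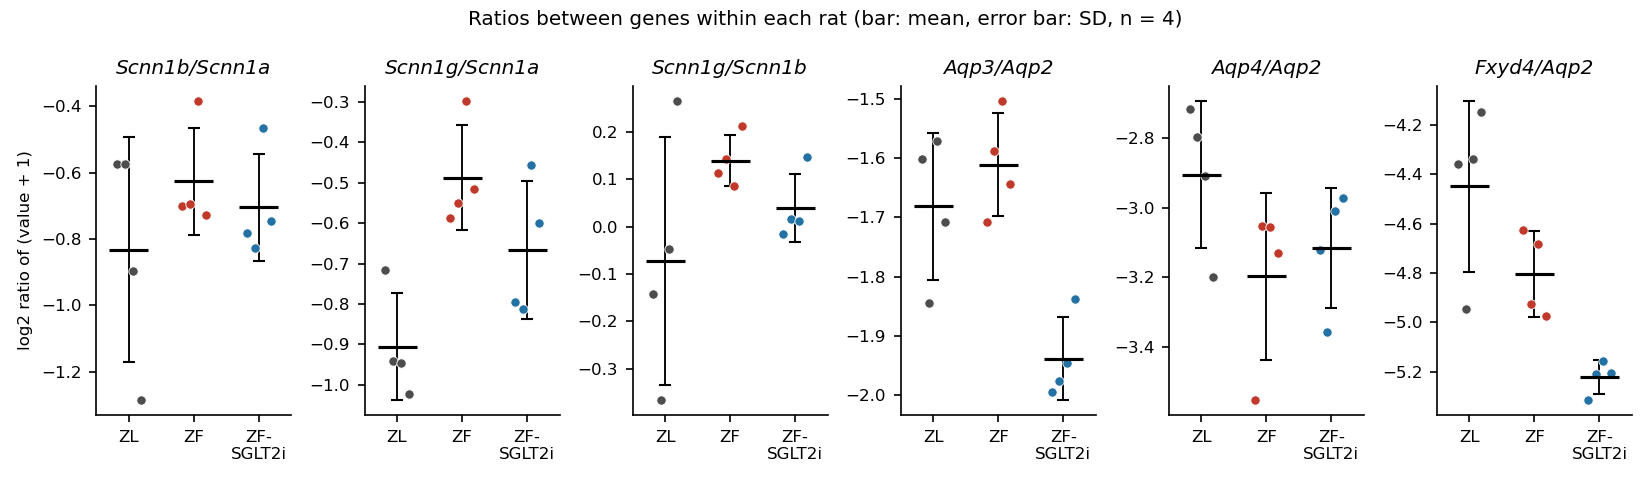
Log2 ratio of (value + 1) of 6 gene pairs in each rat, with mean and SD (n = 4). Scnn1g/Scnn1a separates ZL from ZF, and Fxyd4/Aqp2 is lower in the 4 ZF-SGLT2i rats than in all others, and Aqp3/Aqp2 is lower in them than in the ZF rats but overlaps with ZL.

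Rats of the same group also varied, and the genes tended to vary together. Deviations from the group means were compared with those of Aqp2 over the 12 rats, as a description without a test, since values of different genes come from the same 12 libraries. Of 11482 other genes, those most alike included Myh10 (Pearson r = 0.966, Spearman rho = 0.944), a nonmuscle myosin, the adhesion receptor gene Adgrf5 (r = 0.958), Uaca (r = 0.957) and the calcium pump gene Atp2b4 (r = 0.951). Without the 2 rats farthest from the median, ZF rat 4 and ZL rat 2, r for Myh10 was 0.936. Of the other genes followed here, Aqp3 came 13th in rank (r = 0.932), Scnn1b 49th (0.893), Hsd11b2 53rd (0.890) and Aqp4 87th (0.863). Scnn1g (0.751), Scnn1a (0.623), Fxyd4 (0.514) and Avpr2 (0.459) were less alike, and Aqp1 varied in the opposite direction (r = -0.720).

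The genes around these channels were counted in 7 further lists with 75 genes tested. In ZF against ZL, 8 of them were called higher (10.7%, beside 8.19% of all genes tested) and 7 lower (9.33%, beside 10.6%). In ZF-SGLT2i against ZF the limma test called none of the 75, where 1.39% of all genes tested were called higher and 1.75% lower. At an unadjusted p under 0.05 that comparison held 28 of the 75, or 37.3%, beside 17.2% of all genes tested. In ZF-SGLT2i against ZL, 20 were called higher (26.7%, beside 12.4%) and 7 lower (9.33%, beside 15.0%). The median log2 fold change in ZF-SGLT2i against ZL was 0.48 for transcription factors, 0.19 for ENaC regulators, 0.12 for the pump and potassium channels, 0.039 for proteases and inhibitors, -0.030 for the vasopressin and cAMP pathway, -0.088 for Aqp2 traffic and -0.26 for other aquaporins. Over all genes it was near 0, as given above.

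Among other aquaporins, 4 of 8 were tested. Aqp6, a channel of intercalated cell vesicles, rose in ZF against ZL (111 ± 11.3 to 158 ± 25.2, log2 fold change 0.51, adjusted p = 0.0069) and stood at 208 ± 17.2 in ZF-SGLT2i, above all ZL rats (0.91, adjusted p = 9.1e-05; SD, n = 4). Aqp11, an intracellular channel of the proximal tubule, fell from 32.7 ± 2.02 in ZL to 21.7 ± 3.72 in ZF and 21.6 ± 4.01 in treated rats, without overlap with ZL (adjusted p = 0.010 and 0.0056). Aqp7, a glycerol channel of the proximal tubule, was lower in ZF-SGLT2i than in ZL (log2 fold change -0.74, adjusted p = 0.022), and Mip was not called.

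Of 15 genes of the vasopressin and cAMP pathway, 3 were called for ZF against ZL and 3 for treated rats against ZL, all higher. The adenylyl cyclase gene Adcy3 rose in both (log2 fold change 0.74 and 0.63, adjusted p = 0.0038 and 0.0049), as did the phosphodiesterase gene Pde4b (0.46 and 0.50, adjusted p = 0.013 and 0.0051). Pde3a rose in ZF against ZL (0.55, adjusted p = 0.017) and was not called in ZF-SGLT2i against ZL (0.24, adjusted p = 0.23). The cyclase gene Adcy6 was called in ZF-SGLT2i against ZL (0.41, adjusted p = 0.0090) and not in ZF against ZL (0.24, adjusted p = 0.12). The Gs protein gene Gnas had 243 ± 11.5, 231 ± 13.1 and 230 ± 10.7 in ZL, ZF and ZF-SGLT2i (SD, n = 4), and was not called.

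Of 17 genes of Aqp2 vesicle traffic, 4 were called in ZF against ZL (Myh9 higher; Snap23, Myo5b and Rab5a lower) and 4 in ZF-SGLT2i against ZL. The SNARE gene Snap23 fell in both, from 85.9 ± 6.35 in ZL to 68.0 ± 3.22 in ZF and 58.9 ± 3.38 in treated rats (SD, n = 4; adjusted p = 0.0045 and 0.00010). The motor gene Myo5b fell in both as well (log2 fold change -0.20 and -0.32), and the clathrin gene Cltc fell in ZF-SGLT2i against ZL (-0.30, adjusted p = 0.018). Mal, a raft protein of the apical membrane, rose in ZF-SGLT2i against ZL (0.47, adjusted p = 0.0023). Many of these genes serve vesicle traffic in every cell of the cortex.

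Of 14 regulators of ENaC and targets of aldosterone tested, 2 rose in ZF against ZL (Nedd4, 0.20, and Usp2, 0.88) and 5 in ZF-SGLT2i against ZL, and none fell. Usp2, a deubiquitinase that acts on ENaC, had 20.3 ± 6.72 in ZL, 38.2 ± 14.4 in ZF and 70.1 ± 10.0 in treated rats (SD, n = 4), and all treated rats lay above all ZL and ZF rats (log2 fold change against ZL 1.79, adjusted p = 0.00028). The mineralocorticoid receptor gene Nr3c2 rose in treated rats from 101 ± 16.0 in ZL to 140 ± 7.77 (0.48, adjusted p = 0.0049). The corticosteroid-responsive genes Fkbp5 (1.34, adjusted p = 0.0084), Per1 (1.25, adjusted p = 0.027) and Tsc22d3 (0.64, adjusted p = 0.035) rose against ZL too; Per1 and Usp2 also follow the daily clock. Sgk1, the aldosterone-induced kinase, ranged widely in ZL (262 to 1027), had means of 602, 368 and 487 in ZL, ZF and ZF-SGLT2i, and was not called.

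Of 8 proteases and inhibitors that act on ENaC, Plau, the urokinase gene, fell in ZF and in ZF-SGLT2i against ZL (646 ± 134 to 338 ± 104 and 251 ± 44.5; SD, n = 4; adjusted p = 0.0089 and 0.00068). In ZF-SGLT2i against ZL, the protease genes St14 (0.44) and Tmprss2 (0.60) and the inhibitor gene Spint1 (0.37) rose; Prss8, which encodes prostasin, was not called (271 ± 24.9, 247 ± 32.7 and 229 ± 14.8). Of 8 genes of the sodium pump and potassium channels, the pump modulator Fxyd2 fell in both (-0.45 and -0.35). Kcnma1, the large-conductance potassium channel, rose in ZF-SGLT2i against ZL from 8.79 ± 2.00 to 18.4 ± 1.42 (1.01, adjusted p = 0.00041), and so did Kcnj10 (0.41). The pump subunit gene Atp1b1 had 3743 ± 126, 3891 ± 373 and 4497 ± 228 in ZL, ZF and ZF-SGLT2i and was not called. All treated rats lay above all ZL rats for it (log2 fold change 0.26, adjusted p = 0.086).

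Of 9 transcription factors of collecting duct epithelium, Ehf rose and Hoxb7 fell in ZF against ZL, and 5 rose in ZF-SGLT2i against ZL. Gata3 went from 44.2 ± 9.34 in ZL and 51.1 ± 7.99 in ZF to 71.0 ± 4.11 in ZF-SGLT2i (SD, n = 4), where all treated rats lay above all others (log2 fold change against ZL 0.70, adjusted p = 0.0025). Ehf (0.96), Tfcp2l1 (0.63), Gata2 (0.48) and Grhl2 (0.36) were the other 4. Elf3 and Nfat5 were not called.

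**Figure D4:**
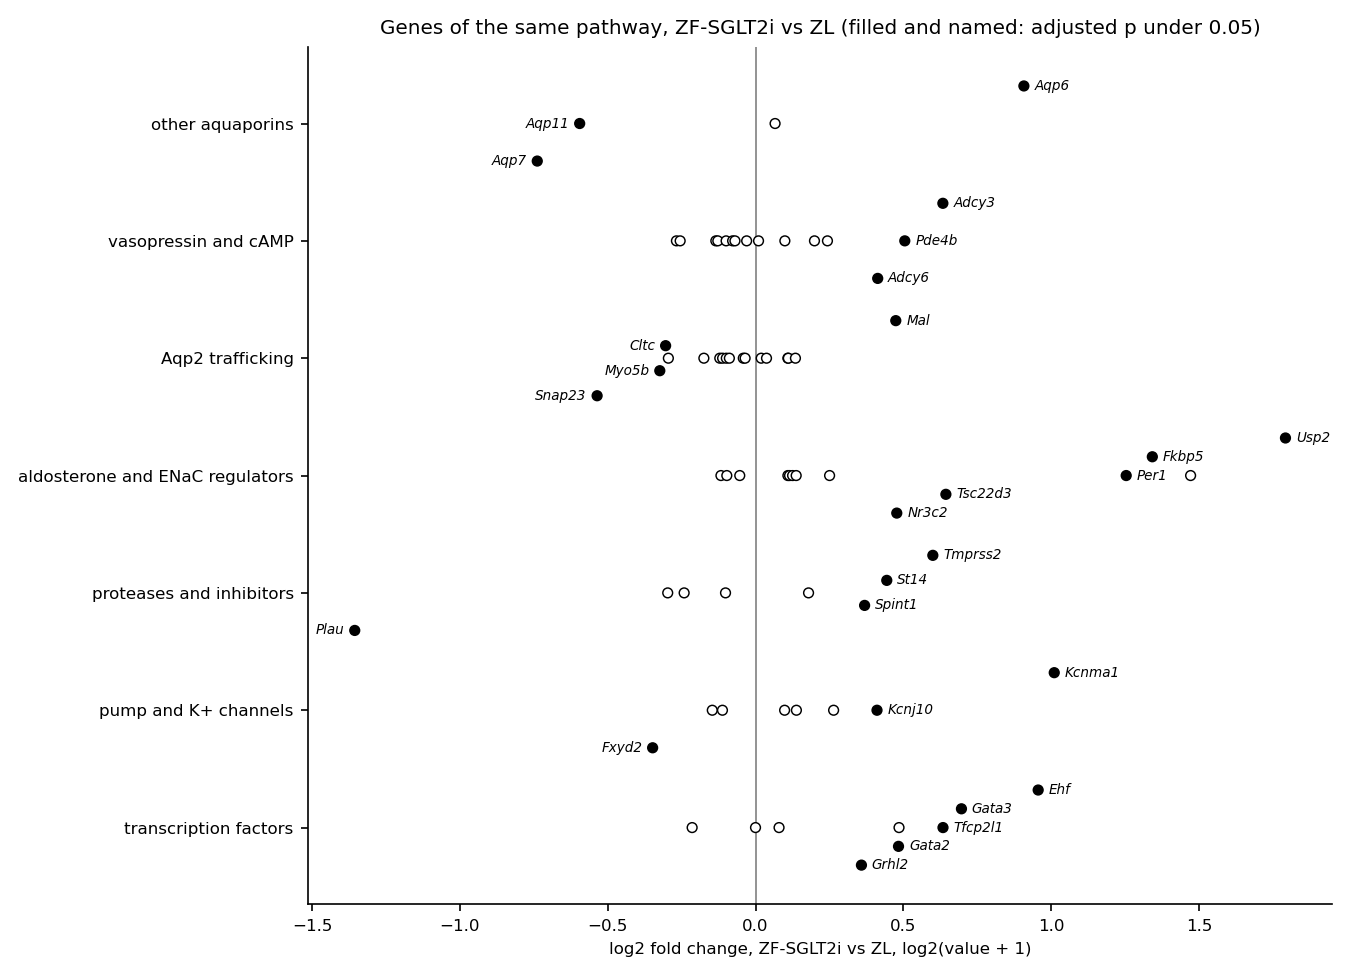
Log2 fold change in ZF-SGLT2i against ZL of each tested gene of 7 lists around the channels, each row a list; filled, named points have a limma adjusted p under 0.05 and are spread vertically for legibility, and open points do not. Of 75 genes, 20 filled points lie right of 0 and 7 left of it.

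Markers of other cells of the cortex moved with these groups. In a sample of whole cortex, more or fewer cells of a type and more or less RNA per cell cannot be told apart. Of 9 other collecting duct markers, the table holds 7, of which 5 passed the filter; the 7 summed to 441 ± 69.4 in ZL, 464 ± 63.3 in ZF and 567 ± 38.6 in treated rats (SD, n = 4), mostly Rhcg. Cldn4 was called higher in ZF and in ZF-SGLT2i against ZL and Rhcg in ZF-SGLT2i against ZL, while Krt7 and Npnt were not in the table. The sum for 7 intercalated cell markers, led by Slc4a1, was 1695 ± 358, 1651 ± 310 and 2242 ± 43.0; the treated rats lay above all others, and 4 of the 7 were called higher against ZL and none against ZF. The sum for connecting and distal tubule markers, led by Slc12a3, was 3542 ± 864, 3943 ± 776 and 4981 ± 258, with Trpv5 called higher in both ZF and ZF-SGLT2i against ZL and Slc12a3 in ZF-SGLT2i against ZL; Pvalb and Trpm6 were not in the table.

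The thick limb and proximal tubule sums went the other way. Thick limb markers, led by Umod, summed to 3870 ± 1094, 3797 ± 901 and 2566 ± 289 in ZL, ZF and ZF-SGLT2i, with Umod called lower in ZF-SGLT2i against ZL. Proximal markers, led by Lrp2, summed to 22235 ± 1934, 17638 ± 2242 and 15090 ± 1767; 3 of 8 were called lower in ZF-SGLT2i against ZL (Slc34a1, Lrp2 and Gatm). Gatm was also called lower in ZF against ZL, and the anion transporter gene Slc22a6 was higher in ZF than in ZL and lower in treated than in untreated ZF rats (670 ± 97.1, 838 ± 61.9 and 558 ± 45.5). Within ZL, rat 4, lowest for Aqp2, was also the lowest in the collecting duct, intercalated and connecting sums and highest in the thick limb sum. Within ZF, rat 4 was lowest for Aqp2 and for the collecting duct and intercalated sums. The part of these shifts in the changes of the 10 genes was not tested.

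The summed medullary markers changed little between groups: 5 markers, led by Slc5a3, summed to 106 ± 11.6, 95.1 ± 10.6 and 96.5 ± 9.15, and Slc14a2, the urea transporter of the inner medulla, averaged 0.31, 0.26 and 1.51. Against ZL, Akr1b1 was called higher and Slc5a3 lower in ZF as well as in treated rats. Endothelial markers, led by Kdr, summed to 463 ± 72.4, 540 ± 40.7 and 516 ± 63.5, with 1 of 6 called (Tek, in ZF-SGLT2i against ZL). Markers of injured tubules, led by Spp1, summed to 439 ± 45.9 in ZL, 1258 ± 663 in ZF and 979 ± 338 in treated rats. Against ZL, 5 of 6 tested were called higher in ZF and 4 in ZF-SGLT2i, and Krt20 was not in the table. In ZF-SGLT2i against ZF, 0 of the 6 were called. Sox9 had a lower mean in ZF (68.7 ± 19.8) than in ZL (109 ± 47.2) or treated rats (100 ± 16.1) and was not called. Red cell genes, led by Hba2, summed to 5.14 ± 0.999, 18.6 ± 9.21 and 29.0 ± 21.7, with Hba2 called higher in both against ZL; the globin genes are near-identical copies whose reads may be shared. Reads on ribosomal RNA genes took a share of 7.25% to 12.0% in the ZL libraries, 8.82% to 12.0% in the ZF libraries and 11.5% to 15.2% in the treated libraries.

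**Figure D5:**
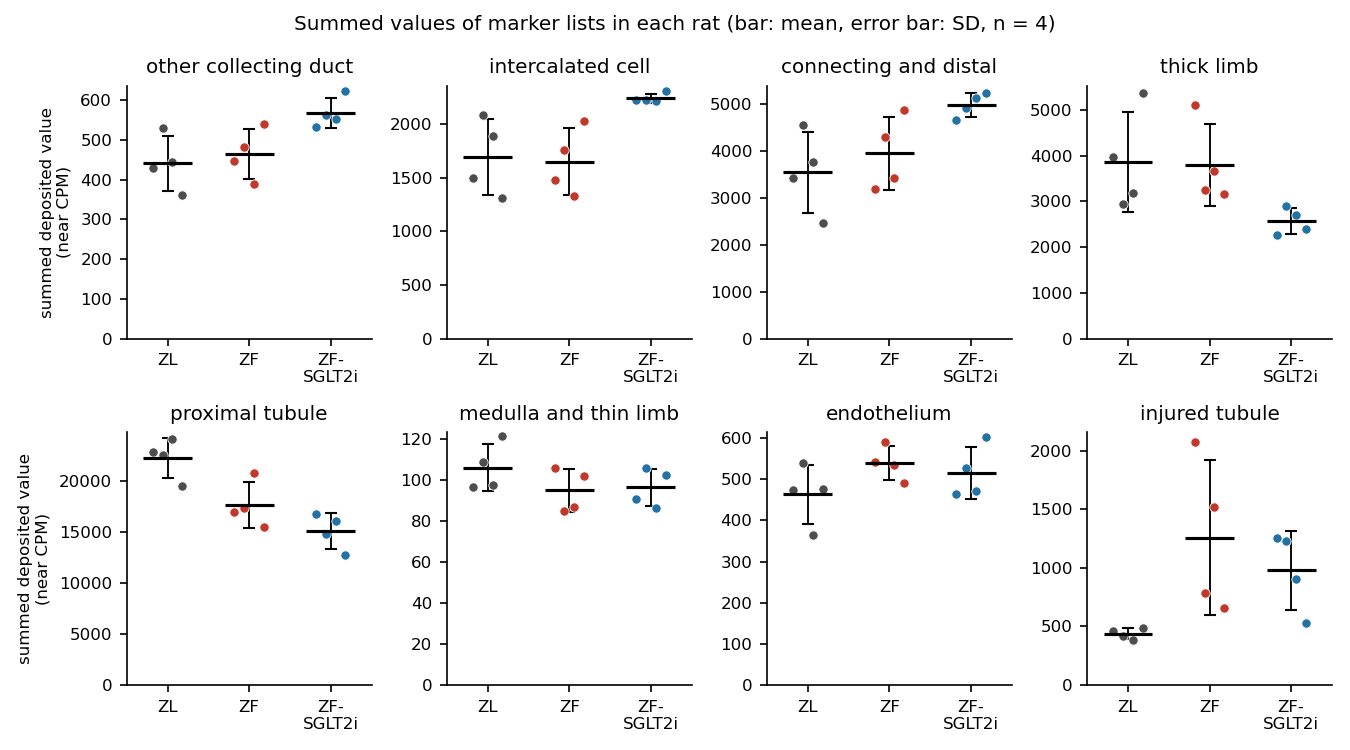
Summed deposited value (near CPM, vertical axis from 0) of 8 marker lists in each rat, with mean and SD (n = 4). Intercalated cell sums of the ZF-SGLT2i rats lie above all other rats, and proximal tubule means fall from ZL to ZF to ZF-SGLT2i.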

How the data were processed

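RNA from the renal cortex of 12 rats was depleted of ribosomal RNA and sequenced as stranded paired-end libraries. The authors deposited signal values for 13151 genes in 12 columns, scaled to be near CPM. Every value (100%, tolerance 1e-06 of a read) was a whole multiple of a constant for the rat, so read counts could be read back to give depth. The submitters' processing notes name Trimmomatic 0.38, RSEM 1.3.0, Bowtie2, edgeR and the rn6 genome build, without their roles. Fxyd4, Avpr2 and other thinly covered genes have the widest counting error.

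Groups were taken from the sample labels. The table was fitted with limma 3.58.1 in R 4.3.3 (eBayes with trend, two-sided) on log2(value + 1), with the 3 groups in 1 fit, for the 11633 genes that reached a value of 1 in 4 or more rats. Fold changes are on that scale and understate the change of low genes. Adjusted p-values are those of Benjamini and Hochberg over these genes. Exact permutation tests over the 70 assignments of 4 rats to a group and ratios within a rat used scipy 1.17.1. The fit was tested on simulated data, in which the changes set, all in the ZF group, were larger than any fitted for the 10 genes. Whether it finds smaller changes was not tested. Libraries of a group were checked for copies, and none was found (chi-square per gene 5.43 to 50.1). The 10 genes and all lists were chosen with earlier results of these data known. All 10 are named. Of the other lists, genes called in the comparison described are named, and others only for a stated role. For likeness to Aqp2, the rule takes the 5 genes with the highest r. A few genes that these rules take in are not reported here. Promoter sequences are from RefSeq (GRCr8), whose build differs from that of the table, so positions are given only for the promoter windows printed, on GRCr8. Alternatives were another pseudocount, other filters, 2 other scalings, a fit of 2 groups, a term for the rat number, array weights and leaving out each rat. Protein sequences and transcript lengths were not used here.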

Additional observations from a re-analysis of the deposited data

Results flagged for a closer look

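In ZL rats, Fxyd4 stood at 20.82 in rat 1 against 18.22 to 18.37 in the other 3 rats, a gap to its nearest neighbour of 0.943 of the group's range. It was set apart by Dixon's test for 4 values. Of 30 groups of 4 rats looked at for the 10 genes, 1 was set apart, and chance sets apart about 1 in 20.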

How the results depend on the processing

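All 11 calls of a gene in a comparison kept their direction under the 20 alternatives (220 values: 189 still called, 31 not called, 0 reversed). The number of genes called in all was 2185 in ZF vs ZL, 366 in ZF-SGLT2i vs ZF and 3184 in ZF-SGLT2i vs ZL. With array quality weights 689 were called in ZF-SGLT2i vs ZF. Leaving out each rat in turn gave 1389 to 2453, 176 to 570 and 2241 to 3302 in these comparisons. Of the 10 genes followed, 2, 1 and 8 were called; leaving out each rat in turn gave 1 to 6, 0 to 2 and 6 to 9. In ZF vs ZL, 4 were called under quantile normalization and 4 with array quality weights. Aqp3 and Hsd11b2 were gained in both, Aqp2 was gained and Aqp1 lost under quantile normalization. Without ZL rat 2, Aqp2, Aqp3, Scnn1b and Hsd11b2 joined, which gave 6. In ZF-SGLT2i vs ZF, 0 were called with no filter on low values, with a mean value of at least 10 and under quantile normalization (Aqp2 adjusted p = 0.0537, 0.0512 and 0.0717), and 2 in a fit of only the 2 groups compared, where Aqp4 joined. At an unadjusted p under 0.05, 6 of the 10 differed there, as did 17.2% of all genes. The cause of these changes was not tested.

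Rat numbers shared by groups mark no common origin in the labels, and same-numbered rats did not deviate together (r from -0.376 to 0.253). With the rat number as a replicate block, 807, 223 and 1502 genes were called, and 1, 1 and 6 of the 10. Aqp1 (ZF vs ZL), Aqp2 (ZF-SGLT2i vs ZF), Aqp4 and Hsd11b2 (ZF-SGLT2i vs ZL) were then not called, and Scnn1a was (ZF-SGLT2i vs ZF, adjusted p = 0.039). The 18 ratio differences moved by less than the spread between rats without a pseudocount and when a rat was left out. Some small differences changed sign when a rat was left out. Scnn1b/Scnn1a went from -0.079 to as high as 0.0023 in ZF-SGLT2i vs ZF, and from 0.13 to as low as -0.024 in ZF-SGLT2i vs ZL. Aqp4/Aqp2 in ZF-SGLT2i vs ZF went from 0.082 to as low as -0.036. The planned count tests with edgeR and DESeq2 were not run. Avpr2 had 126 to 258 reads a rat, and whether depth limited its calls was not tested.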
